A study of Mus musculus with 8 samples.

Results

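Tubulins and the enzymes that fold and modify them were followed in testis RNA of Vrk1 wild-type and Vrk1 mutant mice on Agilent one-colour arrays. The set held every non-control probe whose gene name in the array files begins with Tuba, Tubb, Tubd, Tube or Tubg, is a numbered Ttll gene or Ttl, or is one of the cofactors Tbca to Tbce. It came to 36 of the 27962 gene names on the array, read by 60 of its 41174 distinct probes, and 15 of the genes had more than 1 probe. RNA was prepared from the unsorted cells of the testis of male mice, in 4 samples labelled VRK1+/+ and 4 labelled VRK1-/-, numbered as biological replicates 1 to 4 of independent experiments. Each sample was hybridised to its own array, and no treatment is given. No source used here gives the kind of Vrk1 allele, the strain, the age, the litter or how many animals gave each sample, and p-values therefore measure only the spread between these samples. Levels are log2 of the processed signal relative to the 75th percentile of the array, so 0 is the level of that percentile, and differences are mutant minus wild type on the same scale. A probe was called higher or lower at a limma adjusted p under 0.05, after Benjamini-Hochberg adjustment over all 33716 probes tested. The comparison asks how transcripts of the microtubule building blocks differ when Vrk1, a nuclear serine/threonine kinase, is mutated.

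Alpha- and beta-tubulin form the dimer from which microtubules are built, and gamma-tubulin in its ring complex starts their growth. Folding cofactors assemble the dimer, and ligases of the tubulin tyrosine ligase family add tyrosine, glutamate chains or glycine chains to tubulin tails. In the testis these microtubules form the meiotic spindle, the manchette that shapes the spermatid head and the axoneme of the sperm tail, and they also support the columns of Sertoli cells.

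Coding stretches of tubulin isotypes are so alike that several probes of 60 bases cannot be tied to 1 gene. The sequences of 3 such probes are shown, because readings under their names may mix isotypes, with that of a Tubb5 probe that resembles the Tubb2a probe. Probe coordinates come from the array files, which use mm7. All those shown lie on the minus strand and are written 5′ to 3′. The Tuba2 probe (current symbol Tuba1b) lists RefSeq transcripts of Tuba1a, Tuba1b and Tuba1c, and both Tuba3 probes (current symbol Tuba3a, chr6:125307391-125307450 and chr6:125307868-125307927) list Tuba3a and Tuba3b. A Tubb2a probe (chr13:33492088-33492147) lists Tubb2a, Tubb2b, Tubb3 and Tubb6. Its last 25 bases, positions 36 to 60 from the 5′ end, align with the first 25 of a Tubb5 probe (chr17:33936683-33936742) that lists only Tubb5, with 22 identical bases. In the Tubb2a and Tubb5 sequences capitals mark the 3 bases that differ in that stretch.
Tuba3 A_51_P145402: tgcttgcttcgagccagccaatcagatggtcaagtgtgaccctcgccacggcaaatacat
Tuba3 A_51_P145404: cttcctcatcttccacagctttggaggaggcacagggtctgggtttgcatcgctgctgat
Tubb2a A_52_P621603: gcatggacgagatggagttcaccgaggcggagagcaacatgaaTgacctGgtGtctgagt
Tubb5 A_52_P163796: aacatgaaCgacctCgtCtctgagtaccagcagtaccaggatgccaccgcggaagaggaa
In all, 4 of the 60 probes listed more than 1 RefSeq gene, and 37 matched at least 1 RefSeq gene.

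As a check of the labels, the Vrk1 probes were 4.78-fold and 4.17-fold lower in the mutant (adjusted p = 1.65e-04 and 1.24e-04), and both remained above background on all 4 mutant arrays. No source used here says where the mutation lies relative to them. Signal at the 75th percentile was 680 to 790 on the wild-type and 928 to 1124 on the mutant arrays, and the share of features well above background was 73.3% to 77.5% and 83.3% to 86.5%. The wild-type arrays shared 1 slide and scan and the mutant arrays another, and differences between slides cannot be told apart from differences between genotypes. Germ cell and somatic markers of the testis were both measured. The summed scaled signal of 22 Sertoli cell markers was 128 to 200 in wild type and 266 to 401 in the mutant, with 17 markers higher. For 15 spermatocyte markers the sum was 529 to 587 against 366 to 475, with 7 lower, and for 12 round spermatid markers it was 253 to 287 against 149 to 211, with 6 lower. For 15 elongating spermatid markers the sums overlapped, at 2646 to 3322 against 2139 to 2808, with 3 lower. For 12 spermatogonial markers they also overlapped, at 43.9 to 53.4 against 33.1 to 47.9, with 4 higher and 1 lower. Of 9 macrophage markers, 7 were higher, with sums of 9.14 to 10.2 against 12.5 to 33.8. Other somatic lists were less even, with 5 of 10 tested Leydig cell, 2 of 7 endothelial and 1 of 7 peritubular myoid markers higher. Of 5 tested markers of motile cilia of ducts, 4 were lower. Epididymal markers summed to 0.896 to 1.21 on the wild-type arrays and to 30.8, 2.15, 1.65 and 19.9 on mutant arrays 1 to 4, with 4 of the 7 tested higher. Over all probes 21.2% were higher and 10.8% lower, and the lower share was 28.1% at levels of 2 to 4 and 37.5% above 4. The marker counts were not matched for level, and the brightest markers weigh most in the sums. In these bulk samples fewer cells of a type and less RNA per cell cannot be told apart, and the part of these markers in the differences below was not tested.

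Of the 57 tubulin probes that passed the filter on dim signals, 8 were higher in the mutant, 10 were lower and 39 were not called. The higher probes were 14.0% of those tested, against 21.2% of all probes on the arrays, and the lower ones were 17.5% against 10.8%. In either direction 32.1% of all probes were called. The scaling between arrays moved this balance, with 3 tubulin probes higher and 26 lower under median scaling and 5 higher and 4 lower under spike-in scaling. The median difference was -0.31, compared with 0.05 over all probes. Calls across the arrays varied with how bright a probe was. Among all probes with a mean level above 0, 11.2% were higher and 23.0% lower, with a median of -0.30, and 36 tubulin probes lay in that range. Of those 36, 4 were higher (11.1%) and 8 lower (22.2%), with a median of -0.40, so their shares were within 1 percentage point of those of all probes that bright. Of the other 21 tubulin probes, 4 were higher (19.0%, against 25.7% of all dim probes) and 2 lower (9.52%, against 5.46%). Their median difference was -0.08, against 0.22 over all dim probes. By gene, 8 had a higher probe, 7 had a lower one and none had both.

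**Figure D1:**
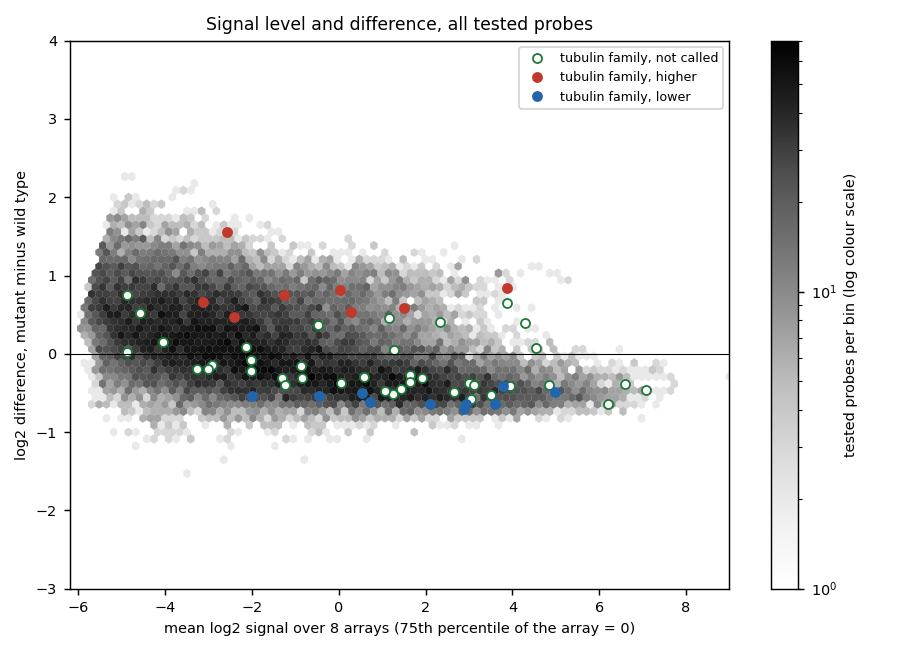
Difference between mutant and wild type (log2, vertical axis) of each tested probe against its mean log2 level over 8 arrays (horizontal axis), with tubulin probes drawn over all 33716 probes. Above a level of 0 the median difference was -0.30 over all probes and -0.40 over the tubulin probes. At or below that level it was 0.22 over all probes and -0.08 over the tubulin probes.

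The level ranges of the genotypes did not overlap for 18 of the 57 probes, against 35.3% of all probes, and 15 of the 18 were called. Leaving out each array in turn, 7 of the 18 calls held in all 8 fits: those of Tubd1, Tbcc, Tubgcp5, Tubgcp6, 1 probe of Ttll1 and 2 probes of Ttll5. Without mutant arrays 1 and 4, where epididymal markers were highest, 16 of the 18 calls were lost and all 18 differences kept their sign. The calls of Tubgcp5 and Tubgcp6 held there too. Fewer arrays were then compared, and over all probes 3.91% were higher and 0.653% lower, against 21.2% and 10.8% with all arrays.

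None of the 10 alpha-tubulin probes, for 7 gene names, passed the test. Their differences ran from -0.64 to 0.65 with a median of -0.38, 6 below 0 and 4 above. The 6 probes of Tuba3, Tuba4 and Tuba8 were all below 0, except 2 of them with cyclic loess, and those of Tuba1, Tuba2 and Tuba6 were above 0 under every scaling tried. Median scaling called 4 of the 10 lower, and quantile normalization and cyclic loess each called 2 higher. Array weights, and the replicate number as a block, each called 3 higher and 4 lower. Tuba3 is the alpha-tubulin isotype known from the testis. Its probe A_51_P145402 read 6.83, 7.14, 7.31 and 7.96 on the wild-type arrays and 6.59, 6.95, 6.76 and 7.08 on the mutant arrays. Wild-type array 4 stood above the other 3, the genotypes overlapped, and the difference was -0.47 (SE 0.23, adjusted p = 0.145). The other Tuba3 probe differed by -0.64 (SE 0.30, adjusted p = 0.124) with the same array standing highest.

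Tuba8, an isotype known from testis, muscle and brain, read 3.59, 3.58, 3.82 and 4.08 on the wild-type arrays and 3.26, 3.15, 2.93 and 3.62 on the mutant arrays. The genotypes overlapped only through mutant array 4, and the difference of -0.53 (SE 0.18, adjusted p = 0.0512) lay just outside the threshold. For Tuba4 (current symbol Tuba4a), probe A_52_P676271 (chr1:75438568-75438627) read 4.68, 5.05, 5.15 and 5.25 on the wild-type arrays and 4.48, 4.61, 4.35 and 5.11 on the mutant arrays, a difference of -0.40 (SE 0.20, adjusted p = 0.143). Array 4 was the highest of its genotype for this probe and for the other 2 Tuba4 probes, which differed by -0.37 and -0.49 and were not called (adjusted p = 0.401 and 0.338).

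Tuba1 (current symbol Tuba1a), the isotype of neurons and many dividing cells, had a difference above 0 that lay just outside the threshold. It read 3.50, 3.25, 3.43 and 4.04 on the wild-type arrays and 4.30, 3.77, 4.11 and 4.65 on the mutant arrays, a difference of 0.66 (SE 0.23, adjusted p = 0.0507). Array 4 of wild type reached into the mutant range, and array 4 was the highest of both genotypes. The call was made with quantile normalization, at 0.97 (adjusted p = 0.0284), and with cyclic loess, at 0.99 (adjusted p = 0.0287). It was also made with array weights, the replicate number as a block, detection on all 8 arrays and 1 probe per gene. Leaving out wild-type array 4, at 0.82 (adjusted p = 0.0203), or mutant array 2, at 0.80 (adjusted p = 0.0295), made it too. It was not made with median scaling, spike-in scaling, normexp, no detection filter or any other array left out. Tuba2 and Tuba6, whose coding parts are close to that of Tuba1, differed by 0.40 and 0.40, and neither was called.

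Of the 11 beta-tubulin probes, for 7 genes, 3 were higher (27.3%, against 21.2% of all probes) and 1 lower (9.09%, against 10.8%). With median scaling 1 was higher and 4 lower, and 13.3% of all probes were then higher and 26% lower. Tubb3, a beta-tubulin best known from neurons and also found in Sertoli cells, rose 1.51-fold. Its probe was spotted 10 times on each array and read 1.35, 1.03, 1.05 and 1.37 on the wild-type arrays and 2.00, 1.48, 1.82 and 1.87 on the mutant arrays. All 4 mutant arrays lay above all 4 wild-type arrays, and the difference was 0.59 (SE 0.16, adjusted p = 0.0215). Leaving out any 1 of wild-type arrays 2 and 3 or mutant arrays 1, 3 and 4 ended the call, with differences from 0.52 to 0.70 over the 8 such fits, as did median scaling.

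Tubb5, the beta-tubulin of most dividing cells, had neighbouring probes that disagreed. Probe A_52_P163795 (chr17:33936592-33936651) read 3.27, 3.35, 3.31 and 3.92 on the wild-type arrays and 4.41, 3.87, 4.20 and 4.71 on the mutant arrays. Only wild-type array 4 reached into the mutant range, and the probe rose by 0.83 on the log2 scale (SE 0.21, adjusted p = 0.0184), or 1.78-fold. That call was lost when any 1 of wild-type array 3 or mutant array 1 was left out. Probe A_52_P163796, whose sequence is shown above, read 4.22, 4.49, 4.66 and 4.63 on the wild-type arrays and 4.44, 4.46, 4.58 and 4.83 on the mutant arrays. Its genotypes overlapped, and the difference was 0.08 (SE 0.15, adjusted p = 0.719).

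Tubb4 (current symbol Tubb4a), a beta-tubulin known from the brain, rose 1.76-fold. It read -0.44, -0.65, -0.59 and 0.15 on the wild-type arrays and 0.40, -0.05, 0.20 and 1.18 on the mutant arrays, with array 4 the highest of each genotype and wild-type array 4 inside the mutant range. The difference was 0.82 (SE 0.28, adjusted p = 0.0475), and the call was lost without any 1 of wild-type arrays 1, 2 and 3 or mutant arrays 1, 3 and 4 and under every other way of scaling tried.

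Tubb2b, a close relative of Tubb2a, was the lower member. It read -1.78, -1.76, -1.77 and -1.60 on the wild-type arrays and -2.66, -2.17, -2.31 and -1.95 on the mutant arrays. Every mutant array lay below every wild-type array, and the probe fell by 0.55 on the log2 scale (SE 0.17, adjusted p = 0.0324). Without any 1 of wild-type arrays 2, 3 and 4 or mutant arrays 1 and 3 the call was lost, as it was with spike-in scaling, and over the 8 fits that left out 1 array the difference was -0.65 to -0.42. The 3 Tubb2a probes differed by -0.38, -0.27 and -0.15, and none was called (the first, which lists 4 genes, had an adjusted p of 0.0585).

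Tubb2c (current symbol Tubb4b), an isotype of axonemes, read 3.86, 4.03, 4.16 and 4.55 on the wild-type arrays and 3.50, 3.89, 3.58 and 4.00 on the mutant arrays. The ranges overlapped and the difference of -0.41 (SE 0.19, adjusted p = 0.114) was not called. Tubb6, a beta-tubulin of many somatic tissues, read 3.83, 3.52, 3.63 and 2.38 on the wild-type arrays and 3.58, 2.77, 2.50 and 2.21 on the mutant arrays on probe A_51_P421140. Wild-type array 4 stood below the other 3 and mutant array 1 above its group, and the difference was -0.58 (SE 0.36, adjusted p = 0.235). The other Tubb6 probe, annotated on the opposite strand, differed by -0.16 (SE 0.42, adjusted p = 0.787).

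**Figure D2:**
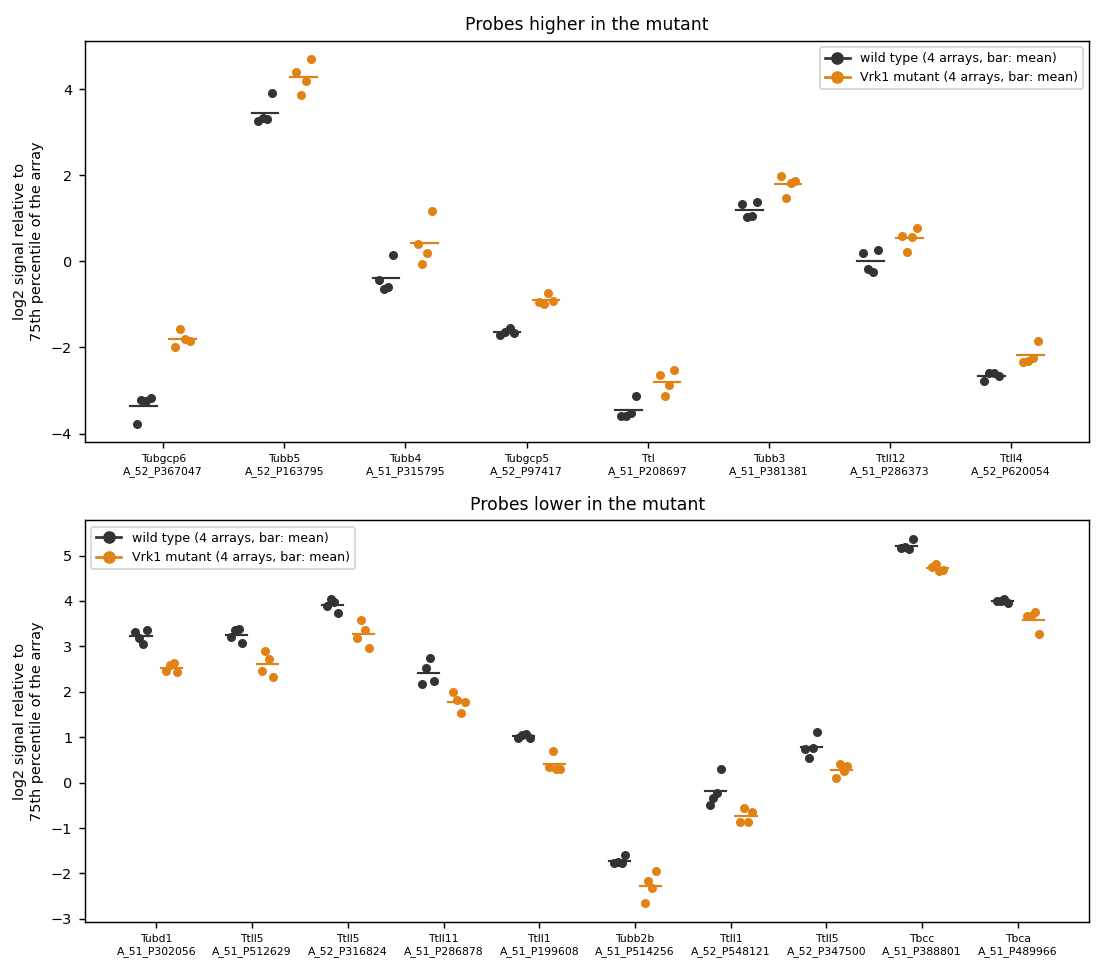
Level of the 18 called probes on each array (log2 relative to the 75th percentile of the array, vertical axis), with higher probes above and lower probes below, 4 wild-type and 4 mutant arrays as points and group means as bars. Tubd1, Tbcc, Ttll1 and Ttll5 lie lower on all 4 mutant arrays, while Tubgcp5 and Tubgcp6 lie higher on all 4.

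Gamma-tubulin and the ring complex were read by 9 probes of 6 genes. Tubgcp5 and Tubgcp6, which belong only to the large ring complex, each had 1 higher probe, or 22.2% of the 9, against 21.2% of all probes. At levels of -2 to 0, where the Tubgcp5 probe lay, 19.6% of all probes were higher. The share was 24.4% at -4 to -2, where the Tubgcp6 probe lay. No probe was lower as reported, while median scaling and array weights each called 2 lower. Tubgcp5 read -1.72, -1.64, -1.55 and -1.67 on the wild-type arrays and -0.94, -0.99, -0.72 and -0.92 on the mutant arrays on probe A_52_P97417 (chr7:52073385-52073444). The genotypes were far apart relative to their spread, and the probe rose by 0.75 on the log2 scale, 1.68-fold (SE 0.12, adjusted p = 0.00358). Its other probes, which lie upstream on the plus strand, differed by 0.15 (SE 0.18, adjusted p = 0.54) and 0.53 (SE 0.19, adjusted p = 0.0554).

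For Tubgcp6, probe A_52_P367047 (chr15:89201566-89201625) gave the largest difference of all tubulin probes. It read -3.77, -3.22, -3.25 and -3.17 on the wild-type arrays and -1.98, -1.57, -1.81 and -1.84 on the mutant arrays, without overlap, and rose 2.93-fold, by 1.55 on the log2 scale (SE 0.17, adjusted p = 6.91e-04). With normexp background correction the rise was 0.64 (adjusted p = 0.0253). The other Tubgcp6 probe (A_51_P444069, chr15:89182072-89182131) did not follow it. It read -2.11, -1.86, -1.94 and -2.06 on the wild-type arrays and -2.32, -1.95, -1.96 and -2.05 on the mutant arrays, a difference of -0.08 (SE 0.14, adjusted p = 0.673). Neither Tubgcp6 probe matched a RefSeq gene through its listed transcripts, so which transcripts each reads is not known here.

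Tubg1, the main gamma-tubulin, read 2.35, 2.09, 2.05 and 1.81 on the wild-type arrays and 1.86, 1.81, 1.60 and 1.76 on the mutant arrays. The ranges overlapped through wild-type array 4, and the difference was -0.32 (SE 0.15, adjusted p = 0.123). Tubg2, the second gamma-tubulin, read -3.30, -2.98, -2.81 and -3.61 on the wild-type arrays and -3.39, -3.41, -3.53 and -3.15 on the mutant arrays, a difference of -0.19 (SE 0.19, adjusted p = 0.44). Tubgcp2 and Tubgcp3, the core subunits, differed by -0.51 (SE 0.26, adjusted p = 0.147) and 0.37 (SE 0.22, adjusted p = 0.216), and neither was called.

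Delta- and epsilon-tubulin help to build the triplet microtubules of centrioles, and delta-tubulin is known from the spermatid manchette. Tubd1 (chr11:86637007-86637066) had the lowest difference of the 57 probes. It read 3.31, 3.19, 3.06 and 3.37 on the wild-type arrays and 2.46, 2.58, 2.63 and 2.43 on the mutant arrays. The groups lay well apart, and the probe fell by 0.71 on the log2 scale (SE 0.13, adjusted p = 0.00537), so that wild type was 1.63-fold above the mutant. Of all probes at levels of 2 to 4, where Tubd1 lay, 28.1% were lower, and their median difference was -0.36. Of the alternatives run, only leaving out both mutant arrays 1 and 4 ended the call, at -0.63 (adjusted p = 0.0659).

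Tube1 did not follow it in a clear way. Probe A_51_P410451 read -1.33, -1.08, -0.87 and -1.37 on the wild-type arrays and -1.89, -1.11, -1.01 and -1.90 on the mutant arrays, with mutant arrays 1 and 4 below the wild-type range and mutant arrays 2 and 3 inside it, and the difference was -0.31 (SE 0.24, adjusted p = 0.321). A dim second probe, well above background on 3 wild-type and 4 mutant arrays, differed by 0.75 (SE 0.27, adjusted p = 0.0586).

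Glutamate chains are added to tubulin by most ligases of the Ttll family. Of 13 tested glutamylase probes for 6 genes, 6 were lower and 1 was higher, 12 differences were below 0, and the median was -0.48. The 6 lower probes belong to only 3 genes, Ttll1, Ttll5 and Ttll11, so they are not 6 separate genes. Of the 9 glutamylase probes with a mean level from 0 to 4, 5 were lower, and of all probes on the arrays 16.5% were lower at levels from 0 to 2 and 28.1% from 2 to 4. The 12 differences below 0 stayed below 0 under each other scaling and with normexp, with medians from -0.70 to -0.36, and the number called lower was then 2 to 11.

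Ttll1 is the catalytic subunit of the polyglutamylase complex and is known to be needed for sperm tails. Its probe A_51_P199608 (chr15:83566346-83566405) read 0.98, 1.06, 1.07 and 0.98 on the wild-type arrays and 0.34, 0.70, 0.29 and 0.31 on the mutant arrays. All 4 mutant arrays were lower, mutant array 2 the least so, and the probe fell by 0.61 on the log2 scale (SE 0.14, adjusted p = 0.0111). The second Ttll1 probe (chr15:83574887-83574946) read -0.49, -0.34, -0.22 and 0.30 on the wild-type arrays and -0.86, -0.55, -0.87 and -0.64 on the mutant arrays. It also did not overlap and fell by 0.54 (SE 0.19, adjusted p = 0.0494), a call that was lost without any 1 of wild-type arrays 2, 3 and 4 or mutant arrays 1, 2, 3 and 4, and with spike-in scaling, cyclic loess or no detection filter.

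Ttll5, a polyglutamylase required for normal sperm and also known as a nuclear receptor coactivator, had 6 probes, of which 5 were tested and 3 were lower. Probe A_52_P316824 (chr12:84055065-84055124) read 3.90, 4.05, 3.97 and 3.73 on the wild-type arrays and 3.18, 3.58, 3.35 and 2.97 on the mutant arrays. Its neighbour A_51_P512629 (chr12:84054988-84055047) read 3.21, 3.35, 3.37 and 3.07 on the wild-type arrays and 2.45, 2.90, 2.73 and 2.34 on the mutant arrays. On both probes the mutant lay below wild type without overlap, arrays 1 and 4 lowest, and they fell by 0.64 (SE 0.16, adjusted p = 0.0166) and 0.65 (SE 0.16, adjusted p = 0.0162). Probe A_52_P347500 (chr12:84014258-84014317) read 0.74, 0.53, 0.75 and 1.12 on the wild-type arrays and 0.10, 0.41, 0.27 and 0.36 on the mutant arrays, again without overlap, and fell by 0.50 (SE 0.16, adjusted p = 0.0356). This last call was lost without any 1 of wild-type arrays 3 and 4 or mutant arrays 1, 3 and 4, and with spike-in scaling or normexp background correction.

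Probes near the other end of Ttll5 were not called. They start at positions 83880912 and 83880955 of the same chromosome and differed by -0.40 (SE 0.14, adjusted p = 0.054) and -0.22 (SE 0.18, adjusted p = 0.36). With quantile normalization and with cyclic loess none of the Ttll5 calls held, and the differences of the 3 called probes were then -0.45 to -0.32. The sixth probe was not well above background on any array.

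Ttll11, a glutamylase that lengthens glutamate chains, read 2.17, 2.53, 2.75 and 2.23 on the wild-type arrays and 2.01, 1.81, 1.53 and 1.77 on the mutant arrays. The mutant lay wholly below wild type, and the probe fell by 0.64 on the log2 scale (SE 0.17, adjusted p = 0.0217). Leaving out wild-type array 2, wild-type array 3 or mutant array 3 each ended the call, and over the 8 such fits the fall was 0.53 to 0.72. The call was also lost with spike-in scaling (adjusted p = 0.055), quantile normalization (adjusted p = 0.077) and cyclic loess (adjusted p = 0.1).

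Ttll9, known from the sperm flagellum, read 1.15, 1.11, 1.39 and 1.51 on the wild-type arrays and 0.98, 0.98, 0.27 and 1.02 on the mutant arrays. The ranges did not overlap, mutant array 3 stood far below the other mutant arrays, and the difference of -0.48 (SE 0.20, adjusted p = 0.0844) was not called. Ttll6, which acts in cilia, differed by -0.40 (SE 0.21, adjusted p = 0.164).

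Ttll4 had tested probes on both sides of 0. Probe A_52_P620054 (chr1:74940460-74940519) read -2.78, -2.59, -2.59 and -2.66 on the wild-type arrays and -2.34, -2.31, -2.24 and -1.86 on the mutant arrays and rose by 0.47 (SE 0.15, adjusted p = 0.0359), with no overlap between the genotypes. Probes A_52_P686344 and A_51_P106443, which match the RefSeq gene, differed by -0.37 (SE 0.16, adjusted p = 0.0937) and -0.30 (SE 0.17, adjusted p = 0.196). The higher probe has no RefSeq match, and its difference was between 0.08 and 0.48 under the alternatives other than leaving out 1 array, with 6 of 11 ending the call. The call was also lost without any 1 of wild-type arrays 1, 2 and 3 or mutant arrays 1, 3 and 4. A further Ttll4 probe was not tested, being well above background on no wild-type and 3 mutant arrays.

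The glycylases, which add glycine to axonemal tubulin, gave 4 probes with no call as reported, all 4 differences below 0. Median scaling called 2 of them lower and array weights all 4. Ttll3, which starts the glycine chain, read -0.69, 0.13, -0.11 and -2.10 on the wild-type arrays and -0.55, -0.57, -1.002 and -1.89 on the mutant arrays on probe A_51_P153079. Array 4 was the lowest of each genotype, the ranges overlapped almost wholly, and the difference was -0.31 (SE 0.48, adjusted p = 0.629). The other Ttll3 probe differed by -0.20 (SE 0.26, adjusted p = 0.564). Ttll10, which lengthens the chain, differed by -0.45 (SE 0.16, adjusted p = 0.051) and -0.37 (SE 0.19, adjusted p = 0.148), the first just outside the threshold. Ttll8 was not analysed here.

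Ttl, the ligase that returns the terminal tyrosine to alpha-tubulin, was higher on 1 of 2 probes. Probe A_51_P208697 (chr2:128834529-128834588) read -3.59, -3.60, -3.53 and -3.13 on the wild-type arrays and -2.64, -3.12, -2.88 and -2.53 on the mutant arrays. Wild-type array 4 nearly met mutant array 2 but did not pass it, and the probe rose by 0.67 on the log2 scale (SE 0.18, adjusted p = 0.02). Both groups lay far below the 75th percentile, and the difference was 0.10 to 0.68 under the alternatives other than leaving out 1 array, with 5 of 12 ending the call. It was also lost without any 1 of wild-type arrays 2 and 3 or mutant arrays 1 and 4. The other Ttl probe differed by 0.03 (SE 0.19, adjusted p = 0.925). Ttll12, a divergent member of the ligase family, read 0.19, -0.18, -0.26 and 0.26 on the wild-type arrays and 0.60, 0.22, 0.57 and 0.77 on the mutant arrays. The ranges overlapped through wild-type array 4 and mutant array 2, and it rose by 0.54 (SE 0.18, adjusted p = 0.0427), a call that was lost without any 1 of wild-type arrays 2 and 3 or mutant arrays 1, 3 and 4. It was also lost with median scaling, where the difference was 0.32 (adjusted p = 0.185), with spike-in scaling and with no detection filter.

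Of the 4 folding cofactors tested, Tbcc and Tbca were lower, and Tbcd and Tbce were not called. None was called with spike-in scaling, quantile normalization or cyclic loess. Of all probes on the arrays, 28.1% were lower at levels of 2 to 4, where Tbca lay, and 37.5% above 4, where Tbcc lay. Tbcc, which drives the last step of dimer assembly, read 5.16, 5.19, 5.15 and 5.37 on the wild-type arrays and 4.75, 4.82, 4.66 and 4.68 on the mutant arrays on its probe at chr17:45022221-45022280. The groups were tight and separate, and it fell by 0.49 on the log2 scale (SE 0.12, adjusted p = 0.0162). The difference was -0.13 with quantile normalization (adjusted p = 0.501) and -0.08 with cyclic loess (adjusted p = 0.673), and neither was called. Tbca, which holds newly folded beta-tubulin, read 4.00, 4.00, 4.05 and 3.95 on the wild-type arrays and 3.66, 3.66, 3.75 and 3.27 on the mutant arrays. It fell by 0.42 without overlap (SE 0.14, adjusted p = 0.0482), but every fit that left out 1 array ended the call, as did normexp background correction.

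Tbcd, the cofactor that carries beta-tubulin into the complex, read 1.39, 1.25, 1.13 and 1.25 on the wild-type arrays and 1.38, 1.13, 1.14 and 1.53 on the mutant arrays, a difference of 0.04 (SE 0.14, adjusted p = 0.828). Tbce, its partner for alpha-tubulin, read -2.04, -2.57, -2.44 and -1.69 on the wild-type arrays and -2.17, -2.29, -2.23 and -1.72 on the mutant arrays, a difference of 0.09 (SE 0.22, adjusted p = 0.78). In both the genotypes overlapped. A second Tbca probe was not well above background on any array, and Tbcb was not analysed here.

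**Figure D3:**
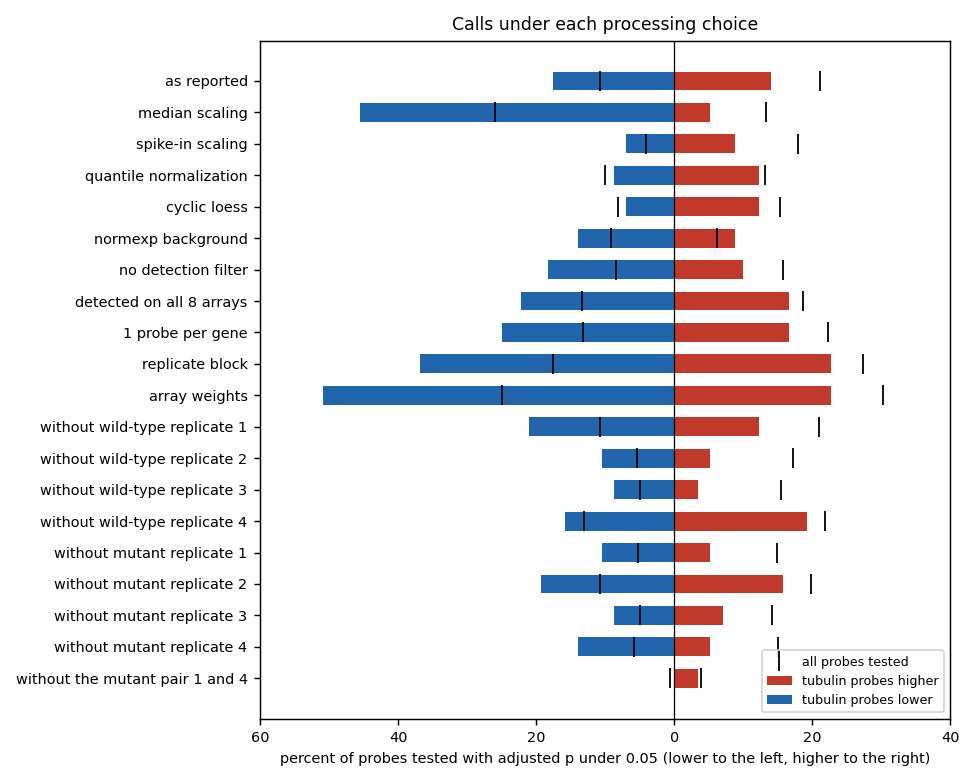
Percent of tubulin probes called lower (bars to the left) and higher (bars to the right) in the mutant under the reported setting and each alternative, with black ticks for all probes tested. The reported setting gave 17.5% lower and 14.0% higher; the lower share ran from 0% without mutant arrays 1 and 4 to 50.9% with array weights.

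Promoters of the members were searched for the full cyclic AMP response element TGACGTCA, the letters bound by factors such as Crem, a transcription activator of spermatids that was itself lower in the mutant at -0.57 (SE 0.14, adjusted p = 0.0163). The motif reads the same on both strands, and the window was the 250 bases before the gene start in RefSeq (GRCm38.p6). It was in 2 of the 29 member genes counted, Tubb2a and Tbcc, and in 1.55% of the 32851 promoters. Tubb6 was left out of the member count, while no such limit was set for all promoters, so the sets differ in this. Stretches around the match, with the motif in capitals, are shown for both, from chr13:34078009-34078123 on the minus strand and chr17:46890529-46890620 on the plus strand.
Tubb2a: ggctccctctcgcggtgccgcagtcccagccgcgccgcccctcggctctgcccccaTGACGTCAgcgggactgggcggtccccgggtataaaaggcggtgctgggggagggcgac
Tbcc: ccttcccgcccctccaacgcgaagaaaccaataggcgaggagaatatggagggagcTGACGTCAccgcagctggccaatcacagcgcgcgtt
The first base of the motif lies 59 bases before the Tubb2a start and 36 before the Tbcc start. Tbcc was among the lower members as reported, but not with spike-in scaling, quantile normalization or cyclic loess, and Tubb2a was not called. Whether Crem binds or regulates either gene was not tested.

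Genes that work on the same microtubules but lie outside the name rule were taken from a list of 72, of which 70 were tested. There, 6 genes were higher and 16 lower, 48 were not called, and the median difference was -0.33. The lower count was 38 with median scaling and 5 with cyclic loess. All 16 lower genes were among the 47 with a mean level above 0, where they made up 34.0%, against 23.0% of all probes above 0. That share of all probes was 28.1% at levels of 2 to 4 and 37.5% above 4. Partner genes were counted on their brightest probe, and the shares were not matched for level within that range. Of the 23 dimmer genes, 4 were higher (17.4%, against 25.7%) and none was lower.

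The severing enzymes had 4 of 6 tested genes lower, all 6 with a level above 0, where 23.0% of all probes were lower, a share that was 28.1% at levels of 2 to 4 and 37.5% above 4. Katnal1, a katanin subunit of Sertoli cells needed for sperm release, read 2.16, 1.92, 1.87 and 2.29 on the wild-type arrays and 1.30, 1.56, 1.21 and 1.56 on the mutant arrays and fell by 0.65 (SE 0.15, adjusted p = 0.0134). Its ranges did not overlap between genotypes. Katnal2 and Spast, further severing enzymes, fell by 0.70 and 0.52 (adjusted p = 0.0099 and 0.0202).

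In the polyglutamylase complex that contains Ttll1, Lrrc49 and Nicn1 were lower and Tpgs1 and Tpgs2 were not called. Of all probes, 16.5% were lower at levels of 0 to 2, where the Lrrc49 and Nicn1 probes lay. Lrrc49 read 1.94, 1.90, 2.07 and 2.48 on the wild-type arrays and 1.11, 1.51, 1.55 and 1.31 on the mutant arrays and fell by 0.73 (SE 0.17, adjusted p = 0.0135), without overlap. Nicn1 fell by 0.44 (SE 0.13, adjusted p = 0.0336), and Tpgs1 and Tpgs2 differed by -0.24 and -0.31. Of the enzymes that trim glutamate or tyrosine from tubulin, Agbl2 read 0.90, 1.21, 1.10 and 0.80 on the wild-type arrays and -0.11, 0.60, 0.57 and -0.37 on the mutant arrays and fell by 0.83 (SE 0.23, adjusted p = 0.0256). Agtpbp1 and Agbl5, 2 deglutamylases known to be needed for male fertility, differed by -0.44 (SE 0.16, adjusted p = 0.0613) and -0.49 (SE 0.17, adjusted p = 0.0536) and were not called on these probes. Another Agbl5 probe was lower.

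Hdac6, a tubulin deacetylase, read 1.56, 1.16, 0.89 and 1.24 on the wild-type arrays and 2.72, 1.98, 2.42 and 2.78 on the mutant arrays and rose 2.40-fold, by 1.26 on the log2 scale (SE 0.21, adjusted p = 0.00393). Sirt2, a further tubulin deacetylase, fell by 0.52 (SE 0.13, adjusted p = 0.0163), and the acetylase Atat1 differed by 0.07 (SE 0.46, adjusted p = 0.918). Stmn3, a stathmin that binds free tubulin, read -4.41, -4.86, -4.48 and -4.92 on the wild-type arrays and -3.41, -3.26, -3.23 and -3.29 on the mutant arrays and rose by 1.37 (SE 0.15, adjusted p = 7.59e-04), with no overlap and at a dim level. Stmn1, the broadly expressed stathmin, differed by -0.28 (SE 0.15, adjusted p = 0.179). Agbl1, a deglutamylase, rose by 1.45 (SE 0.38, adjusted p = 0.02). It read -6.12, -6.12, -4.33 and -4.78 on the wild-type arrays and -4.05, -3.77, -3.89 and -3.83 on the mutant arrays, where -6.12 is the floor set for signals, so its rise depends on that floor.

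Of 18 folding genes outside the Tbc names, each counted on its brightest probe, 4 were lower and none was higher. The lower genes were Tcp1, Cct2, Cct5 and Cct7, subunits of the chaperonin that folds tubulin and actin, all with a level above 4, where 37.5% of all probes were lower. Outside that count, another Cct4 probe was higher, and other probes of Tbcel and Pfdn5 were lower. Their falls were 0.57, 0.43, 0.68 and 0.54 (adjusted p = 0.0321, 0.0345, 0.00837 and 0.0246). Mzt2, a small subunit of the gamma-tubulin ring complex, read 3.87, 4.08, 4.22 and 4.16 on the wild-type arrays and 3.39, 3.57, 3.33 and 3.12 on the mutant arrays and fell by 0.73 (SE 0.15, adjusted p = 0.00719). The other 5 nucleation genes outside the Tubgcp family were not called on their brightest probe, though another probe of Mzt1 was higher and another of Cdk5rap2 lower. Among 21 genes whose products bind microtubules or their ends, 3 were higher (Mapre1, Mapre2 and Tppp) and 3 lower (Map7, Camsap1 and Clip1). Over all probes 21.2% were higher and 10.8% lower. Outside that count, another probe was higher for each of Mapre1, Map1a, Mapt, Ckap5, Clasp1 and Camsap2, and another of Clasp1 was lower.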

How the data were processed

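RNA from 4 wild-type and 4 Vrk1 mutant testis samples was hybridised to 8 one-colour Agilent arrays, and groups and replicate numbers were taken from the labels. Spots were read with Agilent Feature Extraction 9.5.3.1, per the submitters' processing notes. The deposited intensity is the processed signal of each spot, background-subtracted and detrended within the array per the file headers, with no scaling between arrays stated. The deposited value table holds the same intensities, on a linear scale without centring, with all values equal to the scanner files within a relative tolerance of 1e-04. Its column medians ran from 97.8 to 205.9.

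From these, each array was divided by its own 75th percentile (controls left out), values under 0.01437 were set to that floor, and log2 was taken. Outlier spots were dropped and repeated spots averaged. The test covered 33716 of 41174 probes: those above background, by the software's own call, on 4 or more of the 8 arrays and with 3 or more values per genotype. A two-sided limma fit (version 3.58.1, R 4.3.3) with genotype alone gave the differences, and p-values were adjusted over all tested probes by Benjamini-Hochberg, with a threshold of 0.05. A gene with several probes is described by the passing probe with the highest mean level. The other probes of tubulin genes are counted and described too, while counts of partner genes and markers rest on that brightest probe alone, and other probes of a gene can differ from it. The members and lists were chosen with earlier results of these data known. Values on each array are given for member genes that passed without overlap (up to 10 in each direction), for 25 isotypes and enzymes named by function, for the 3 largest rises and falls among partner genes and for 7 further partner genes. Other genes named are examples of their group. Some items that these rules select are not reported here.

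In simulated data for these 33716 probes with 200 changed, the fit recovered 0% of log2 changes of 0.5, 44.8% of changes of 1 and 97.0% of changes of 2, with 1 false call among 95. Many more probes changed in the real data, so these rates do not carry over. Precision is limited by the number of arrays, whose log2 values correlated at 0.966 to 0.995 within a genotype and at 0.953 to 0.984 across genotypes. Alternatives were other scalings, normexp background correction, other filters, 1 probe per gene, the replicate number as a block, array weights and leaving out arrays.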

Additional observations from a re-analysis of the deposited data

Results flagged for a closer look

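Over the 57 tested probes in both genotypes, 12 of 114 sets of 4 arrays held 1 array that stood apart from the other 3, by Dixon's 95% critical value for the gap to the nearest array as a share of the whole range. Chance flags about 1 in 20 such sets, and 7 of the 12 concerned wild-type array 4. That array read highest for Tuba2 (gap 0.937 of the range), Tubb2b (0.873), the called Tubb5 probe (0.889), Tbcc (0.856) and the called Ttl probe (0.844), and lowest for Tubgcp3 (0.873) and Ttll10 (0.936). Wild-type array 1 read lowest for the called Tubgcp6 probe (0.857) and for the other Ttl probe (0.830). Among mutant arrays, array 1 read lowest for a Tube1 probe (0.856), array 2 highest for a Ttll1 probe (0.893) and array 3 lowest for Ttll9 (0.947). Without wild-type array 4, 11 tubulin probes were higher and 9 lower, and Tuba1 was then called.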

How the results depend on the processing

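As reported, 8 tubulin probes were higher and 10 lower, and 6 partner genes were higher and 16 lower. No called tubulin probe changed sign under any alternative run. Median scaling gave 3 tubulin probes higher, 26 lower and 38 partner genes lower. Spike-in scaling gave 5 and 4, with 8 partner genes lower. Quantile normalization gave 5 tubulin probes and 8 partner genes lower, and cyclic loess 4 and 5. Normexp gave 5 tubulin probes higher and 9 partner genes lower. Array weights gave 13 tubulin probes higher, 29 lower and 31 partner genes lower. With detection on all 8 arrays, 3 partner genes were higher. Without mutant arrays 1 and 4, 2 tubulin probes were higher, 0 lower, and 1 partner gene lay in each direction; fewer arrays were then compared. Leaving out each array in turn gave 2 to 11 tubulin probes higher and 5 to 12 lower, and 3 to 8 partner genes higher and 7 to 18 lower. The higher tubulin count was 2 to 4 without wild-type array 2 or 3 or mutant array 1, 3 or 4, and the lower count 5 or 6 without wild-type array 2 or 3 or mutant array 1 or 3. For the other changes the cause was not tested. The deposited value table, no filter and 1 probe per gene moved no count by over 1.5 times.

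Over all probes the median difference was 0.05 as reported, -0.17 with median scaling and -0.23 with normexp, and 66.2% of calls were higher as reported, 33.9% with median scaling, 81.5% with spike-in scaling and 40.3% with normexp. With the replicate block, 13 tubulin probes were higher and 21 lower, among them 3 and 4 of the 10 alpha-tubulin probes. Same-numbered samples correlated at 0.28, 0.24, 0.09 and 0.61 in their deviations from the group means, and numbers 1, 2 and 4 matched best with their own number, a hint of pairing from the data. Number 3, at 0.09, did not, and the labels name nothing shared, so the fit without the block is reported. Probes at background level or at the floor have no order there.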
